A study of Mus musculus with 30 samples.

Results

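The 10 genes described here, Nedd4, Nedd4l, Itch, Wwp1, Wwp2, Smurf1, Smurf2, Hecw2, Huwe1 and Ube3a, encode ubiquitin ligases of the HECT class. They were chosen by name, with earlier results of these data known, from a count table of 54232 genes. All 10 were among the 20139 genes with more than 14 counts summed over the libraries. RNA was sequenced from 3T3-L1 cells, a mouse preadipocyte line that forms fat cells in culture, in 6 groups of 5 libraries. All groups were kept in adipogenic medium for 5 days. Control cells received no further agent. Single agents were given as oxLDL at 50 µg/mL, IS at 100 µM or pNaKtide at 0.7 µM, and the groups IS+pNaKtide and oxLDL+pNaKtide received both agents at these concentrations. oxLDL is oxidized low-density lipoprotein, IS is indoxyl sulfate, a solute that accumulates in uremia, and pNaKtide is a peptide that blocks signaling from the Na,K-ATPase through Src. The labels give 5 days of treatment, while the study's methods give a shorter time. The cell line and source labels name 3T3 cells, although the extraction text names adipose tissue. By those labels all libraries come from 1 cell line, and no source used here says whether the 5 replicates were separate cultures, so p-values measure the spread between libraries.

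HECT ligases accept ubiquitin from an E2 enzyme onto a cysteine of their own and then pass it to the substrate. Members of the NEDD4 family, to which Nedd4, Nedd4l, Itch, Wwp1, Wwp2, Smurf1, Smurf2 and Hecw2 belong, hold WW domains that bind proline-rich motifs of substrates and adaptors. Huwe1 and Ube3a lie outside that family and have no WW domains. The family is known for setting the turnover of ion channels, growth factor receptors and Smads, the proteins that carry signals of TGF-β and BMP, which restrain or favour fat cell formation.

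Between 6945498 and 15159877 reads were counted on genes per library, with a median of 11524210. All 11 adipocyte markers were detected, with Fabp4 at 2523 and Adipoq at 1015 CPM on average. Of the 6 macrophage markers, Ptprc and Itgam had no count in any library and Adgre1 had 4 in all, while Csf1r had 65, Lyz2 had 518 and Cd14 had 1647. On the first principal component, which held 64.4% of the variance, Control replicate 1 scored -25.8 (other Control libraries 6.47 to 29.9), IS replicate 4 scored 28.2 (others -36.7 to -23.2), pNaKtide replicate 3 scored -5.36 (others 15.9 to 36.6) and oxLDL+pNaKtide replicate 4 scored 67.5 (others 14.5 to 33.2). The main values that rest on these libraries are given with and without them. Values of a gene are CPM, that is counts relative to a library's total after scaling by the TMM method, listed for replicates 1 to 5 or as mean ± SD (n = 5). Fold changes, standard errors and adjusted p-values come from edgeR's two-sided quasi-likelihood test over all 20139 genes with Benjamini-Hochberg adjustment, and a gene was called at an adjusted p below 0.1.

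To compare levels between genes, the deposited FPKM values, which are scaled per kilobase, were used. Nedd4, the founding member, which targets membrane receptors and channels, stood highest by far with 117 ± 14.7 FPKM (SD, n = 30). Huwe1, a very large ligase of Mcl1, Myc and p53, followed with 16.4 ± 3.32 FPKM. Smurf2 and Smurf1, which mark Smads and TGF-β receptors for degradation, had 16.3 ± 2.06 FPKM and 15.4 ± 1.63 FPKM. These 3 genes did not differ from each other beyond their spread. Itch, a ligase of Jun proteins and Notch, had 5.32 ± 1.34 FPKM and Wwp2, a WW domain ligase close to Itch, had 5.00 ± 0.815 FPKM, again within each other's spread. Wwp1, a close relative of Wwp2 and Itch, had 2.62 ± 0.631 FPKM, Ube3a, the ligase lost in Angelman syndrome, had 1.73 ± 0.669 FPKM, and Nedd4l, a regulator of the epithelial sodium channel, had 1.43 ± 0.103 FPKM. Wwp1 and Nedd4l differed by more than the sum of their SDs, while Ube3a lay within the spread of both. Hecw2 was lowest with 0.0928 ± 0.0400 FPKM, and had only 3 to 32 counts in a library, so that its values carry a large counting error.

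**Figure D1:**
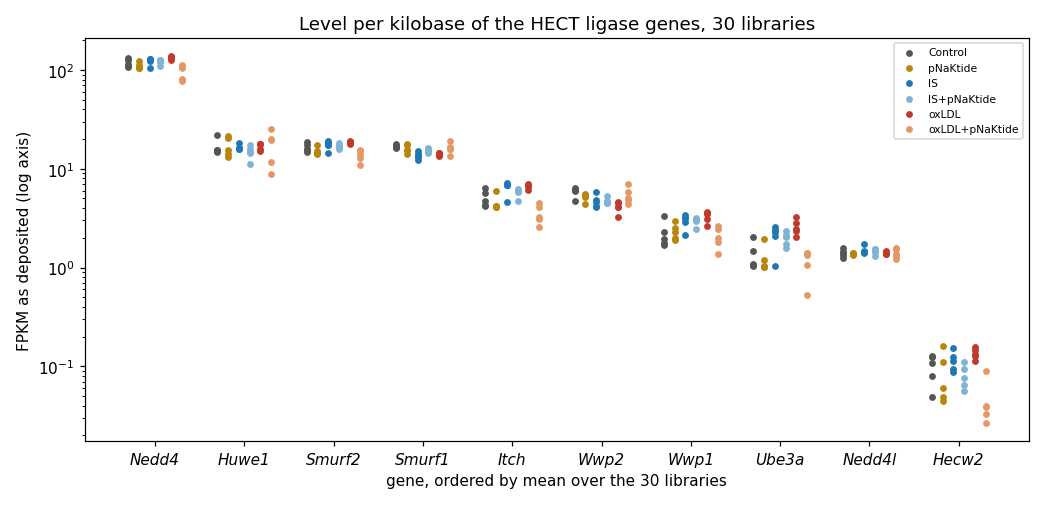
FPKM as deposited (log axis) of the 10 HECT ligase genes, ordered by their mean over the 30 libraries, with 1 point per library and 1 colour per group. Nedd4 lies above all other members, at a mean of 117 FPKM, and Hecw2 below all others, at a mean of 0.0928 FPKM.

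Across the 30 libraries the spread in CPM differed widely between members. The coefficient of variation was 7.79% for Nedd4l, 10.2% for Smurf1, 13.2% for Nedd4 and 13.4% for Smurf2. It was 24.5% for Wwp1, 25.9% for Itch, 39.2% for Ube3a and 43.4% for Hecw2. Nedd4l was thus the steadiest of the 10 genes, and its group means ranged only from 19.8 CPM with pNaKtide to 21.9 CPM with IS.

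**Figure D2:**
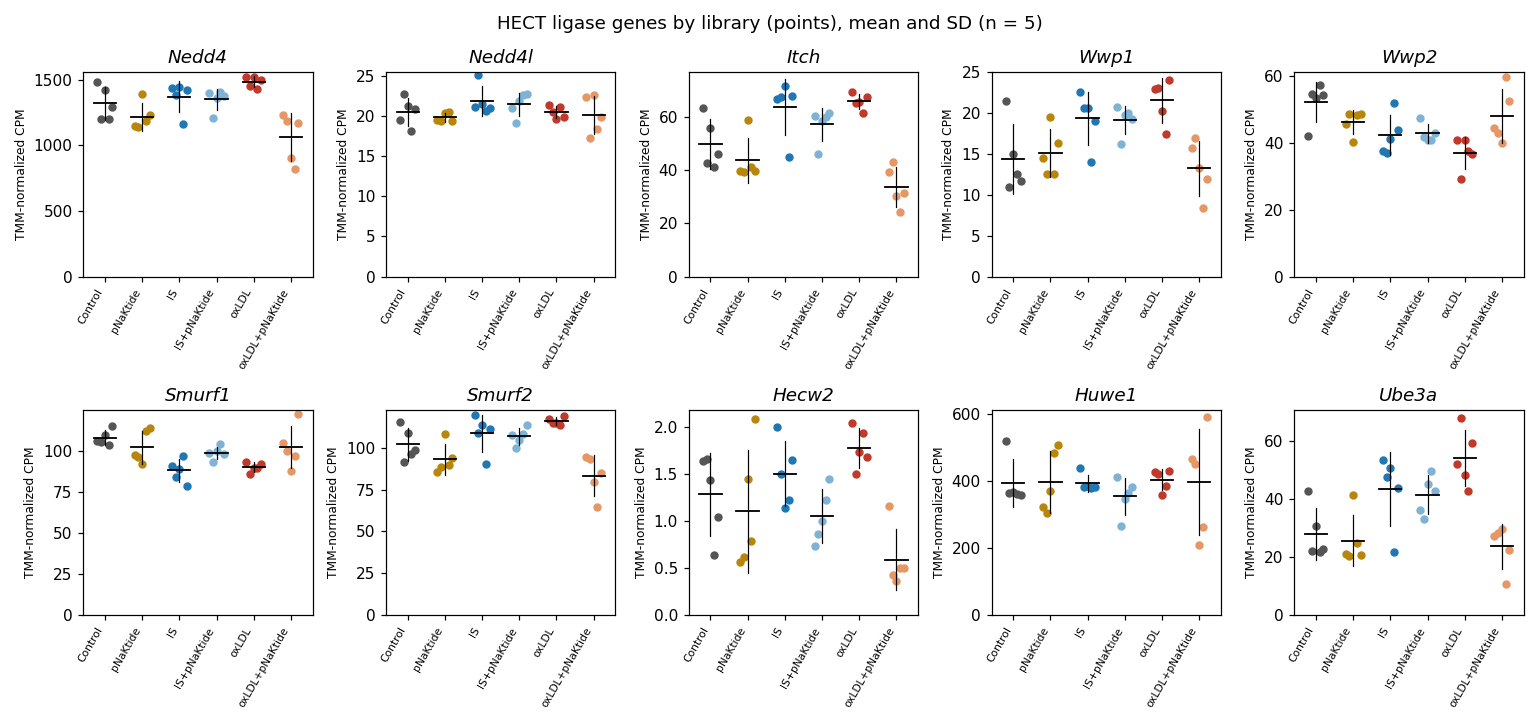
TMM-normalized CPM of each HECT ligase gene in the 6 groups, with 1 point per library, a horizontal line at the mean and a vertical line for the SD (n = 5). For Ube3a the oxLDL libraries (43.0 to 67.9 CPM) lie above every Control library and every oxLDL+pNaKtide library.

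The comparison of oxLDL with Control asks what oxidized lipoprotein does to these genes. Ube3a, Wwp1 and Itch were higher with oxLDL, and Wwp2 and Smurf1 were lower. Since the fall of Wwp2 with oxLDL was known when the genes were listed, it is given without a test and left out of the counts in each comparison that holds the Control or oxLDL libraries. The other 9 members were also listed with earlier results of these data known, so their p-values and counts may not be free of that choice. Of the other 9 members 4 were called, where 36% of all genes tested were called (18.1% higher and 18% lower). Members had a median of 0.18 on the log2 scale, and all genes had 0.04. CPM values of the groups did not overlap for 2 of the 9, Ube3a and Smurf1, against 8.35% of all genes.

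Ube3a changed most. It had 42.7, 22.0, 30.6, 21.7 and 22.9 CPM in the Control libraries and 52.1, 67.9, 48.4, 43.0 and 59.5 CPM with oxLDL. The lowest oxLDL library was just above Control replicate 1, the highest Control library, and well above the other 4. The change was 0.95 on the log2 scale (SE 0.24, adjusted p = 0.00922), a 1.94-fold rise, and it was 1.16 (adjusted p = 0.000853) without Control replicate 1. Ube3a lies on an imprinted stretch of chromosome 7 and overlaps the antisense transcript Snhg14. Snhg14 had 458 counts in all libraries together, 3.42% of the count of Ube3a. Whether the counting used strand is not given in the sources used here, so reads of Ube3a and its antisense partners may not be told apart.

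Wwp1 had 21.5, 10.99, 15.0, 12.6 and 11.7 CPM in Control and 22.9, 23.1, 20.3, 17.4 and 24.1 CPM with oxLDL. Control replicate 1 reached into the oxLDL range, while the other Control libraries lay below it. The change was 0.58 on the log2 scale (SE 0.16, adjusted p = 0.0126), and 0.78 (adjusted p = 0.000513) without Control replicate 1. Itch had 63.3, 42.4, 55.9, 41.2 and 46.1 CPM in Control and 69.2, 65.3, 65.3, 61.5 and 67.2 CPM with oxLDL (log2 fold change 0.40, SE 0.14, adjusted p = 0.0317). Every oxLDL library was above the Control mean, but Control replicate 1 exceeded the lowest oxLDL library. The call of Itch was lost without Control replicate 4, at an adjusted p of 0.103.

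Wwp2 moved the other way. It had 41.8, 54.5, 53.3, 57.2 and 54.3 CPM in Control and 40.9, 29.2, 40.8, 37.6 and 36.7 CPM with oxLDL (log2 fold change -0.50, SE 0.11). The lowest Control library, replicate 1, lay just above the highest oxLDL library. Smurf1 had 106, 106, 109.6, 103 and 115 CPM in Control and 93.4, 85.9, 89.3, 89.4 and 92.2 CPM with oxLDL, so that the groups did not overlap. On the log2 scale it was at -0.26 (SE 0.08, adjusted p = 0.0177).

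The remaining 5 genes were not called. Smurf2, the close paralog of Smurf1, was at 0.18 on the log2 scale (SE 0.09, adjusted p = 0.126), opposite in sign to Smurf1. Nedd4 had 1319 ± 127 CPM in Control and 1483 ± 40.7 CPM with oxLDL (log2 fold change 0.17, SE 0.10). Hecw2 had 1.28 ± 0.440 and 1.78 ± 0.217 CPM (0.44, SE 0.27). Huwe1 (0.03, SE 0.19) and Nedd4l (0.00, SE 0.08) lay closest to 0. Without Control replicate 1, IS replicate 4 and pNaKtide replicate 3, an alternative chosen after the data were seen, 6 of the 9 members other than Wwp2 were called, as Nedd4 (0.22, adjusted p = 0.0524) and Smurf2 (0.24, adjusted p = 0.0144) joined the other 4. In that fit 48.1% of all genes were called.

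Adding pNaKtide to oxLDL was compared with oxLDL alone. Of the other 9 members 6 were lower (Itch, Smurf2, Hecw2, Ube3a, Nedd4 and Wwp1) and 1 was higher (Smurf1), where 48.3% of all genes were called (26.1% lower and 22.1% higher). All 10 members had a median of -0.48 on the log2 scale, and all genes had -0.09. The groups did not overlap for 6 members, the 6 that were lower, against 28.4% of all genes. This comparison and that of oxLDL with Control share the oxLDL libraries, so opposite signs in them are not independent.

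Itch fell from 65.7 ± 2.84 CPM to 39.4, 43.2, 30.4, 24.2 and 31.5 CPM (log2 fold change -0.96, SE 0.14, adjusted p = 1.53e-05). Every library with pNaKtide lay below every oxLDL library and all but replicate 2 lay below every Control library. Ube3a had 27.2, 28.4, 29.8, 10.6 and 22.3 CPM with oxLDL+pNaKtide, with replicate 4 far below the rest. On the log2 scale it was at -1.18 (SE 0.24, adjusted p = 0.000316), and it was still called without replicate 4 (adjusted p = 0.00176). Wwp1 had 15.8, 17.0, 13.2, 8.44 and 11.9 CPM (log2 fold change -0.69, SE 0.17, adjusted p = 0.00129). Without replicate 4 the log2 fold change of Wwp1 was -0.57 (adjusted p = 0.00814) and that of Itch -0.86.

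Nedd4 had 1517, 1452, 1521, 1429 and 1495 CPM with oxLDL and 1228, 1188, 905, 820.4 and 1169 CPM once pNaKtide was added. The oxLDL libraries were close together, and those with pNaKtide were spread widely below them. The change was -0.48 on the log2 scale (SE 0.10, adjusted p = 0.000351). Smurf2 fell from 117, 115, 115, 114 and 119 CPM to 94.3, 93.4, 79.8, 64.4 and 84.7 CPM (log2 fold change -0.47, SE 0.09, adjusted p = 0.000143). Hecw2 fell from 2.05, 1.50, 1.73, 1.93 and 1.67 CPM to 1.16, 0.422, 0.355, 0.497 and 0.503 CPM (log2 fold change -1.61, SE 0.33, adjusted p = 0.000292), the largest fold among the members and the one resting on the fewest counts. Without replicate 4 of oxLDL+pNaKtide, Nedd4 was at -0.39 (adjusted p = 0.00271) and Smurf2 at -0.39 (adjusted p = 0.00107).

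Wwp2 had 44.5, 42.8, 40.0, 59.6 and 52.4 CPM (log2 fold change 0.37, SE 0.11). All 5 libraries were above the oxLDL mean of 37.0 CPM, but replicate 3 lay below the highest oxLDL library. Smurf1 had 105, 99.9, 87.7, 96.7 and 123 CPM (log2 fold change 0.18, SE 0.08, adjusted p = 0.0629), and its call was lost without replicate 5, the highest library (adjusted p = 0.221), without oxLDL replicate 2 (adjusted p = 0.130) and with genes of at least 1 count tested (adjusted p = 0.151). Nedd4l (-0.03, SE 0.09) and Huwe1 (-0.02, SE 0.19) were not called. For Huwe1 the 5 libraries with oxLDL+pNaKtide ranged from 210.0 to 592 CPM, a far wider range than the 357 to 428 CPM with oxLDL.

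With TMM scaling the median over all genes lay at 0.04 for oxLDL against Control, 0.03 for IS against Control and -0.09 for oxLDL+pNaKtide against oxLDL. Scaled by library size only, it lay at 0.17, 0.14 and -0.30 instead. The split of all genes called higher and lower then went from 3637 and 3622 to 4963 and 2276 for oxLDL against Control, from 897 and 702 to 2125 and 416 for IS against Control, and from 4458 and 5264 to 2696 and 7680 for oxLDL+pNaKtide against oxLDL. In the last comparison 7 of the 9 members other than Wwp2 were then lower and 0 higher. Nedd4l joined the lower ones at -0.25 (SE 0.10), which is above the median of all genes, Wwp2 was at 0.14 (SE 0.09), and Smurf1 turned to -0.04. The 6 members lower under TMM ran from -1.83 for Hecw2 to -0.70 for Smurf2, all below the median of all genes. With oxLDL against Control, 5 of the 9 members other than Wwp2 were higher and 0 were lower under this scaling.

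The sign of the changes called went with base composition, and their size followed it less closely. With added pNaKtide, Hecw2 (43.7% GC) was at -1.61 and Wwp1 (39.6% GC) at -0.69. The GC content of the longest transcript was 36.9% for Ube3a, 39.6% for Wwp1 and 42.1% for Itch, the members that rose with oxLDL. It was 55.3% for Wwp2 and 55.5% for Smurf1, the members that fell, and 43.7% to 48.1% for the 5 members not called. The median of the genes tested was 49.4%. After removal of the trend that counts followed over GC content and exon length in a library, the calls with oxLDL among the 9 members other than Wwp2 went from 4 to 0, where 19.9% of all genes were called. The log2 fold change of Ube3a went from 0.95 to 0.13, that of Wwp1 to 0.03 and that of Itch to -0.06, while that of Wwp2 was -0.37. With the trend over GC content alone taken out, an alternative chosen after the data were seen, Ube3a was at 0.27 and still called (adjusted p = 0.0606), 1 of the 9, where 18.2% of all genes were called. For oxLDL+pNaKtide against oxLDL, with the trend over GC content and exon length taken out, 2 of the 9 were higher (Nedd4l at 0.46 and Huwe1 at 0.30) and 3 were lower (Hecw2 at -1.04, Itch at -0.30 and Smurf2 at -0.18), with Wwp2 at 0.28, where 36.9% of all genes were called. Ube3a was then at -0.10, Wwp1 at 0.08, Nedd4 at -0.06 and Smurf1 at 0.04, none of them called. With the trend over GC content alone, where 38.8% of all genes were called, Nedd4 (-0.24), Itch (-0.42), Smurf2 (-0.29), Hecw2 (-1.22) and Ube3a (-0.32) were called lower and Nedd4l (0.20) higher. Itch, Smurf2 and Hecw2 were thus lower with added pNaKtide in all 3 fits. What made the changes follow base composition was not tested.

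**Figure D3:**
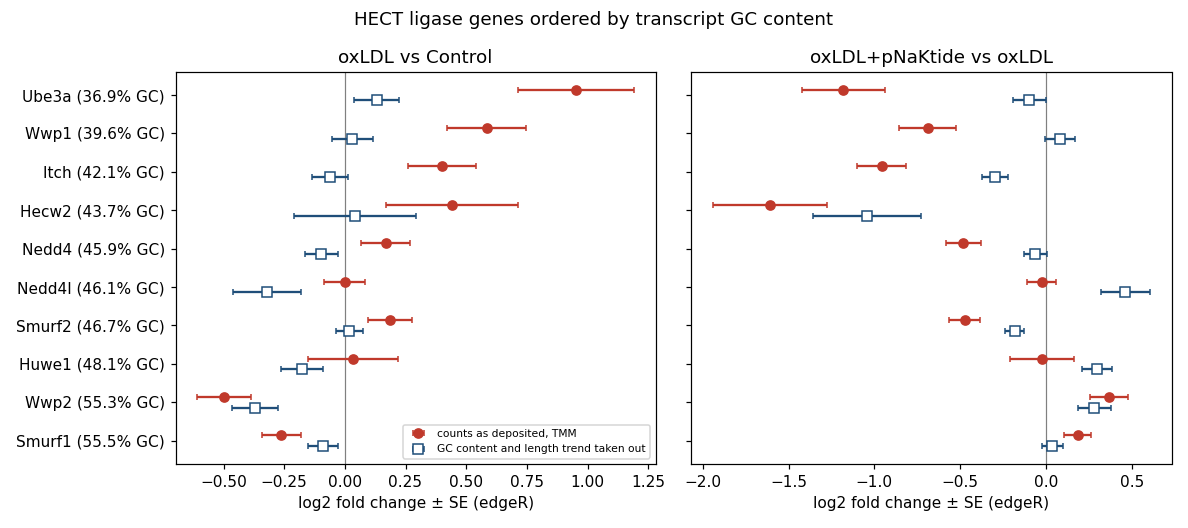
log2 fold change ± SE from edgeR for the 10 members, ordered by the GC content of the longest transcript, with the counts as deposited (filled circles) and with the trends over GC content and exon length removed library by library (open squares). For Ube3a the change with oxLDL goes from 0.95 to 0.13, while for Wwp2 it goes from -0.50 to -0.37.

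**Figure D4:**
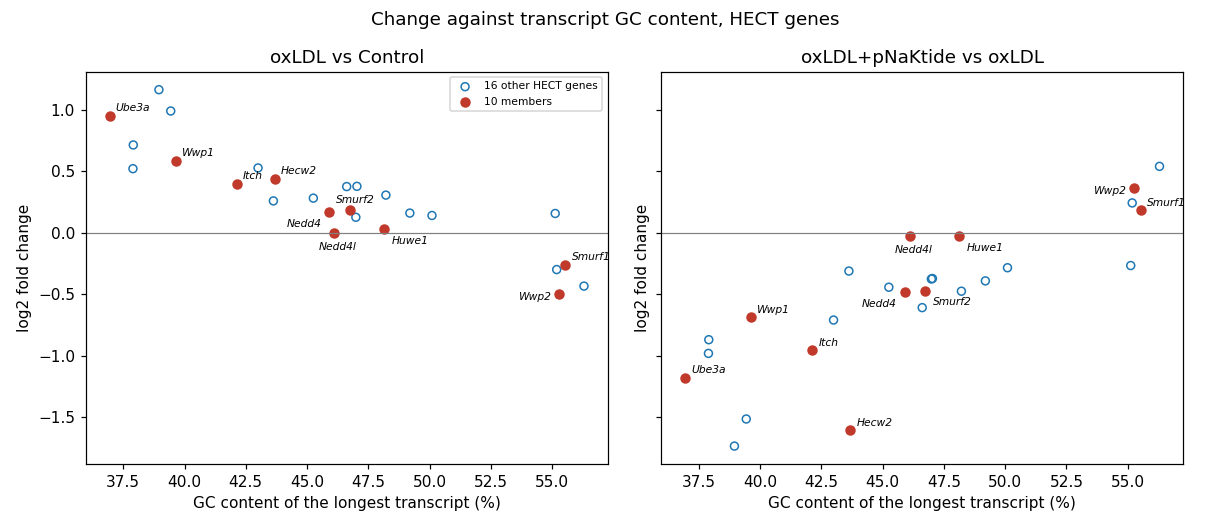
log2 fold change against GC content of the longest transcript for the 10 members (filled) and 16 other HECT genes (open), in oxLDL against Control and in oxLDL+pNaKtide against oxLDL. Ube3a, Wwp1, Itch and Hecw2, the members with the least GC, lie above 0 in the first comparison and below 0 in the second, and Wwp2 and Smurf1, with the most GC, lie on the other side of 0.

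As a description, the 250 bases before the annotated start were read for the 7 members with an entry in the RefSeq promoter table (GRCm38.p6). Entries for Itch, Wwp1 and Nedd4l were not used here. Windows are shown for Ube3a, Smurf2 and Hecw2, which fell with added pNaKtide before the trends were taken out, and for Wwp2, which had the opposite sign. They run 5′ to 3′ on the strand of the gene. Capitals mark matches, on either strand, to 5 motifs, namely the CAAT box (CCAAT), the core of the GC box (GGGCGG), the TATA motif (TATAAA), the E-box palindrome (CACGTG) and the cyclic AMP response palindrome (TGACGTCA). Matches of different motifs did not overlap, while 2 of the GC box matches in Smurf2 share a base.
Ube3a, chr7:59228500-59228749, plus strand: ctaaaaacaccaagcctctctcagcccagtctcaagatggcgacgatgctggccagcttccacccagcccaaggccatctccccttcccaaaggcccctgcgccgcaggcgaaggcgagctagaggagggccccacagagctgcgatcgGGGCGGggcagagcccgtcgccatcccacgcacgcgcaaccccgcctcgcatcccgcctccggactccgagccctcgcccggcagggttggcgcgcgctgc
Smurf2, chr11:106920716-106920965, minus strand: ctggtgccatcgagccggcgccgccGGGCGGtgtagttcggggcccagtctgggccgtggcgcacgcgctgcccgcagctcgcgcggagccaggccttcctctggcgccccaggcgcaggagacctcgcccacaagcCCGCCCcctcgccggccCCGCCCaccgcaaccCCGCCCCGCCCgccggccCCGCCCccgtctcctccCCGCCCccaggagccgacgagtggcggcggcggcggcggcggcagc
Hecw2, chr1:54195035-54195284, minus strand: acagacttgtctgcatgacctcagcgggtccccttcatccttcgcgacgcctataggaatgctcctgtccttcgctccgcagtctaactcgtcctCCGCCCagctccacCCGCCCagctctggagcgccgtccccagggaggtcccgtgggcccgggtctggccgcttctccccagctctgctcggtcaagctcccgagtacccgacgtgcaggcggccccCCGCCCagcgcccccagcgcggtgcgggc
Wwp2, chr8:107436120-107436369, plus strand: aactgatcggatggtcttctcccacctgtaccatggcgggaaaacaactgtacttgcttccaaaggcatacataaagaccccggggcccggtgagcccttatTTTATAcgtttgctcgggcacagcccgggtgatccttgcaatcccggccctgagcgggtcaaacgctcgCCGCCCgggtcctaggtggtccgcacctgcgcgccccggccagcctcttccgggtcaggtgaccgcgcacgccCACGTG
All 4 windows hold GGGCGG, with 1 match in Ube3a, 7 in Smurf2, 3 in Hecw2 and 1 in Wwp2. So do the windows of Smurf1 and Huwe1 and 1 of the 2 windows of Nedd4, where 32.7% of all 32851 windows hold it. Wwp2 is the only one of the 7 with a TATAAA (12.4% of all windows) or a CACGTG (6.02%). CCAAT (33.8%) was found only in the second window of Nedd4, and the cyclic AMP response palindrome (1.55%) in none of the members' windows. The window of Ube3a is 70% GC although its transcript has the lowest GC content of the members, and that of Wwp2 is 62.8% GC, where the median of all windows was 52.4%. The members' windows with GGGCGG ran from 55.6% GC in Huwe1 to 82% in Smurf2, so the share of 32.7% is not matched for GC content.

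Compared with Control, oxLDL+pNaKtide left 4 of the 9 members other than Wwp2 lower (Itch, Smurf2, Nedd4 and Hecw2) and none higher, where 5.2% of all genes were called (3.16% lower and 2.04% higher). Itch was at -0.56 on the log2 scale (SE 0.14, adjusted p = 0.0262), Hecw2 at -1.17 (SE 0.35, adjusted p = 0.0639), Smurf2 at -0.29 (SE 0.09, adjusted p = 0.0769) and Nedd4 at -0.31 (SE 0.10, adjusted p = 0.0872). All 5 libraries lay below the Control mean for each of the 4, but each overlapped with Control, where 4.03% of all genes did not. Ube3a (23.6 ± 7.82 against 28.0 ± 8.98 CPM), Wwp1 and Smurf1 did not pass the test in this comparison. With the trend over GC content and length taken out Itch (adjusted p = 0.00424), Hecw2 (adjusted p = 0.0646) and Smurf2 (adjusted p = 0.0726) were still called lower, where 9.48% of all genes were called, with GC content alone all 4 were (9.37%), and DESeq2 called 3 (9.04%). Without oxLDL+pNaKtide replicate 4, 0 members were called (2.51% of all genes), and without the 3 libraries named above only Itch was (7.36% of all genes).

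The comparison of IS with Control called fewer members, and the difference from oxLDL was not tested. Smurf1 was the only member called with IS, 1 of 9 where 7.94% of all genes were called (3.49% lower and 4.45% higher). It had 90.9, 84.3, 89.1, 97.1 and 78.8 CPM with IS against 103 to 115 CPM in Control, without overlap (1.81% of all genes) (log2 fold change -0.30, SE 0.08, adjusted p = 0.0616). This call held in only 2 of the 10 fits that left out 1 Control or IS library, those without Control replicate 1 or IS replicate 4, with adjusted p up to 0.187, and it was lost with the trend over GC content and length taken out (-0.17, adjusted p = 0.130). Members had a median of 0.09 on the log2 scale, and all genes had 0.03. Ube3a had 53.5, 47.6, 50.9, 21.7 and 44.0 CPM with IS (log2 fold change 0.64, SE 0.24, adjusted p = 0.112). Replicate 4 lay at the level of the lowest Control library, and the other 4 lay above every Control library. Wwp1 (0.43, SE 0.16, adjusted p = 0.115) and Itch (0.36, SE 0.14, adjusted p = 0.122) also missed the threshold, and Wwp2 was at -0.31 (SE 0.11). This comparison shares its Control libraries with that of oxLDL.

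The count for IS depended on the method and on single libraries. DESeq2 called 5 of the 10 members, Wwp2 counted among the 10, where 15.7% of all genes were called. A fit of the compared groups alone called 0 of the 20139 genes. Without Control replicate 1, IS replicate 4 and pNaKtide replicate 3, 5 of the 9 were called, where 45.7% of all genes were. Ube3a then had a log2 fold change of 1.03 (adjusted p = 0.000136), Wwp1 of 0.74 (adjusted p = 8.01e-05), Itch of 0.58 (adjusted p = 0.000139) and Smurf2 of 0.22 (adjusted p = 0.0394), while Smurf1 was at -0.32 (adjusted p = 0.00204) and Wwp2, without a test, at -0.44. Leaving out Control replicate 1 (33.2% of all genes called), IS replicate 4 (34.5%), pNaKtide replicate 3 (10.4%) or oxLDL+pNaKtide replicate 4 (12.6%) alone gave 4 of the 9 each. These libraries were picked for where they lie in expression space, so the larger count is a description of the other libraries and not a separate test.

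When pNaKtide was added to IS, no member was called, and no gene at all was (0% of the 20139 genes), with 564 genes at an unadjusted p below 0.05 and 14 genes called by DESeq2. Smurf1, from 88.0 ± 6.93 to 98.6 ± 3.89 CPM, was the single member with an unadjusted p below 0.05 (log2 fold change 0.17, SE 0.08), and DESeq2 called 0 members. Ube3a had 41.5 ± 6.69 CPM with IS+pNaKtide against 43.5 ± 12.7 CPM with IS (-0.07, SE 0.23), and Itch 57.1 ± 6.26 against 63.6 ± 10.7 CPM (-0.16, SE 0.14). Compared with Control, IS+pNaKtide had 0 members called, where 0.358% of all genes were. There 2 of the 9 members other than Wwp2 had an unadjusted p below 0.05 (20% of all genes), and DESeq2 called 0 (7.38% of all genes). The 2 were Ube3a (0.57, SE 0.24) and Wwp1 (0.42, SE 0.16), and both, with Itch, were called without the same 3 libraries, where 33.4% of all genes were.

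With pNaKtide alone 0 members were called against Control, where 1 gene in all (0.00497%) was, 0 members had an unadjusted p below 0.05 (6.12% of all genes), and DESeq2 called 0 members (0.283% of all genes). The log2 fold changes of the members ran from -0.24 (Hecw2, SE 0.31) to 0.07 (Wwp1, SE 0.17). Itch had 39.7, 39.1, 58.8, 41.2 and 39.4 CPM, with replicate 3 alone at the level of the higher Control libraries, and Ube3a had 21.1, 20.4, 41.3, 24.8 and 20.8 CPM, with the same library standing out.

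The change with pNaKtide under oxLDL was set against that with pNaKtide alone by an interaction term. The term was called for 6 of the other 9 members, where 24.6% of all genes were called (11.8% negative and 12.8% positive). The difference was negative for all 6, Nedd4, Itch, Wwp1, Smurf2, Hecw2 and Ube3a. For Itch it was -0.77 (SE 0.20, adjusted p = 0.0242) and for Ube3a -1.06 (SE 0.34, adjusted p = 0.0416), and for Wwp2 it was 0.55 (SE 0.16). Without pNaKtide replicate 3 only Itch was called of the 9 (10.5% of all genes). With the trend over GC content and exon length taken out 0 of the 9 were called, where 11.5% of all genes were, and with GC content alone taken out 0 were, where 10.1% of all genes were.

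**Figure D5:**
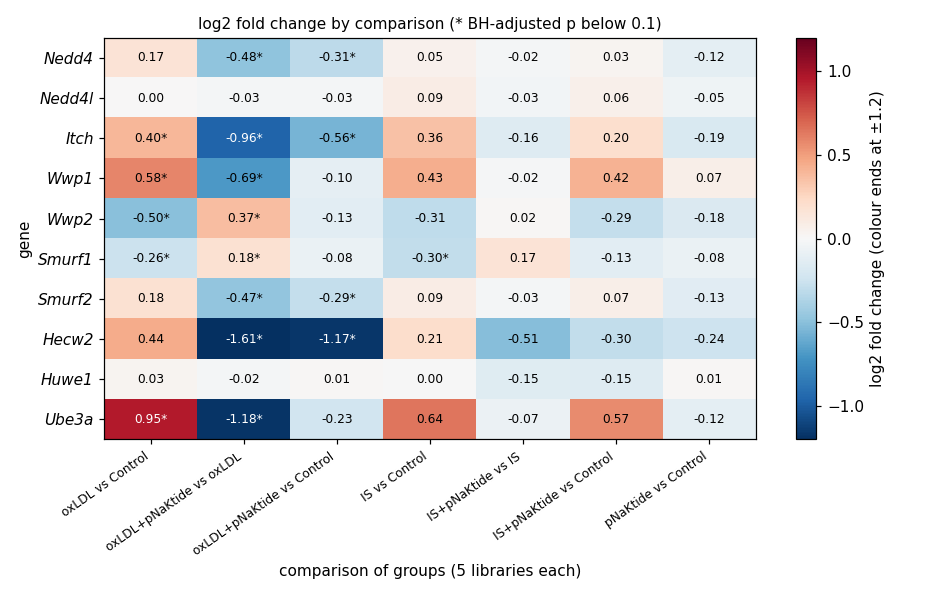
log2 fold change of each member in 7 comparisons of groups of 5 libraries (colour, red for higher and blue for lower), with a star at a Benjamini-Hochberg adjusted p below 0.1. Stars are found in the comparisons of oxLDL and oxLDL+pNaKtide, and for Smurf1 with IS, and those of Wwp2 where oxLDL is compared with Control or with oxLDL+pNaKtide are descriptions.

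A further 17 HECT ligases were listed, of which 16, all but Hecw1, were tested. With oxLDL 7 were higher and 2 lower, where 36% of all genes were called, with a median of 0.29 on the log2 scale against 0.04 for all genes. The interferon-induced Herc6 (0.99, SE 0.23, adjusted p = 0.00798), Hectd2 (1.16, SE 0.31, adjusted p = 0.0102) and Herc4 (0.53, SE 0.16, adjusted p = 0.0167) had the smallest adjusted p among those higher. Hectd3 (-0.30, SE 0.08) and Ube3b (-0.43, SE 0.11) were lower. With pNaKtide added to oxLDL, 11 were lower and 2 higher, where 48.3% of all genes were called, with a median of -0.42 against -0.09 for all genes. Herc6 (-1.51, SE 0.26), Hectd2 (-1.74, SE 0.34) and Hace1 (-0.98, SE 0.20) led those lower, and Ube3b (0.54, SE 0.11) and Hectd3 (0.24, SE 0.08) were higher. Once the trend over GC content and length was taken out, 0 were higher and 2 lower with oxLDL (19.9% of all genes called), and 2 higher and 6 lower with added pNaKtide (36.9%). With IS, 2 of 16 were higher (Hectd2 at 0.98 and Herc4 at 0.45), where 4.45% of all genes were. Neither was called with the trend taken out (0.49, adjusted p = 0.293, and 0.16, adjusted p = 0.301), where 388 of all genes were higher.

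Among 16 adaptors and regulators of the NEDD4 family, 7 were higher and 1 lower with oxLDL (36% of all genes called), with a median of 0.29. Usp15, a deubiquitinase that acts with Smurf2 (0.50, SE 0.13, adjusted p = 0.0110), Arrdc3, an arrestin-like adaptor (0.44, SE 0.13, adjusted p = 0.0137), and Usp9x (0.63, SE 0.19, adjusted p = 0.0162) led those higher, and Wbp2, a WW domain binding protein, was lower (-0.38, SE 0.12, adjusted p = 0.0179). With added pNaKtide 9 were lower and 1 higher (48.3% of all genes called). Sgk1, the kinase that restrains Nedd4l, fell (-0.58, SE 0.09, adjusted p = 2.95e-05), as did Txnip (-0.47, SE 0.09, adjusted p = 8.11e-05) and Usp15 (-0.74, SE 0.14, adjusted p = 9.30e-05), while Wbp2 rose (0.49, SE 0.12). With the trend taken out, 3 were higher and 2 lower with oxLDL (19.9% of all genes called, median of the list -0.01), and 3 higher and 6 lower with added pNaKtide (36.9%). Sgk1 was then at -0.43 and Txnip at -0.37, while Usp15 was at -0.01. With IS, Arrdc2 (0.52) and Arrdc3 (0.40) were higher, 2 of 16 where 4.45% of all genes were. With the trend taken out 1 of the 16 was higher, where 388 of all genes were.

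Of 20 listed substrates, 19 were tested, and 10 were higher and 2 lower with oxLDL (36% of all genes called), with a median of 0.19. The TGF-β receptor Tgfbr1 (0.75, SE 0.20, adjusted p = 0.0116) and Smad2 (0.29, SE 0.10, adjusted p = 0.0347) were among those higher, and the tumour suppressor Trp53 (-0.27, SE 0.08) was among those lower. With added pNaKtide 11 were lower and 2 higher (48.3% of all genes called). Smad1, a BMP signal carrier, fell from 10.7 ± 0.701 to 5.85 ± 1.31 CPM (log2 fold change -0.85, SE 0.13, adjusted p = 1.75e-05), followed by Tgfbr1 (-0.92, SE 0.21) and Klf5 (-0.76, SE 0.17). Klf2 (0.68, SE 0.17) was among those higher. With the trend taken out, 5 were higher and 1 lower with oxLDL (19.9% of all genes called), and 1 higher and 7 lower with added pNaKtide (36.9%). Smad1 was then at -0.83 and Klf5 at -0.56, while Tgfbr1 was at -0.23. These are transcript levels, and the protein levels of substrates were not measured. With IS 0 of 19 were called, where 7.94% of all genes were.

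Of the enzymes upstream of the ligases, 11 E1 enzymes, E2 partners and ubiquitin genes were tested, and 4 were higher and 3 lower with oxLDL (36% of all genes called). The E2 enzymes Ube2d3 (0.48, SE 0.11) and Ube2e1 (0.34, SE 0.12) and the second E1 enzyme Uba6 (0.68, SE 0.21) were higher. The main E1 enzyme Uba1 (-0.50, SE 0.12, adjusted p = 0.00892), Ube2l3, the E2 partner of Ube3a (-0.25, SE 0.08, adjusted p = 0.0236), and the polyubiquitin gene Ubb (-0.41, SE 0.15, adjusted p = 0.0383) were lower. With added pNaKtide, 5 were higher and 3 lower (48.3% of all genes called), with Ube2l3 (0.47, SE 0.08, adjusted p = 4.52e-05) and Uba1 (0.60, SE 0.13) among those higher and Ube2e1 (-0.61, SE 0.12), Uba6 (-0.90, SE 0.21) and Ube2d3 (-0.32, SE 0.11) among those lower. Ube3a and its E2 partner Ube2l3 thus had opposite signs in both comparisons. With the trend taken out the list no longer went both ways, with 0 higher and 5 lower with oxLDL (19.9% of all genes called, median of the list -0.33) and 7 higher and 0 lower with added pNaKtide (36.9%, median 0.40). Ube2l3 was then at -0.52 with oxLDL and at 0.88 with added pNaKtide, while Ube3a was at 0.13 and -0.10 and was not called in either. Ube2d3 turned in sign, to -0.37 with oxLDL (not called) and to 0.81 with added pNaKtide (called higher). With IS only Uba1 was called (-0.37, SE 0.12), 1 of 11 where 7.94% of all genes were. Its call was lost with the trend taken out (-0.31, adjusted p = 0.102).

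The levels of cell type markers also differed between the groups. The summed level of the 11 adipocyte markers had a median of 16714 CPM in Control (range 13687 to 17477), 14386 CPM with oxLDL (13051 to 17295) and 17546 CPM with oxLDL+pNaKtide (16383 to 18883). It was 13133 CPM with IS (11569 to 14673). The 9 preadipocyte and fibroblast markers summed to medians of 7155, 5516, 6203 and 4611 CPM in the same 4 groups. Of the 11 adipocyte markers, 4 were lower with oxLDL, where 18% of all genes were, and 7 were higher with added pNaKtide, where 22.1% of all genes were. With the trend over GC content and length taken out, 1 was lower with oxLDL, where 2289 of the 20139 genes tested were. With added pNaKtide 6 were then higher, where 3809 of the 20139 were. With IS 4 of the 11 were lower, where 3.49% of all genes were. Of the 9 preadipocyte and fibroblast markers, 3 were lower with oxLDL, where 18% of all genes were, and 3 with IS (3.49%). With added pNaKtide 3 were higher (Vim, Dlk1 and Ly6a) and 1 lower (Pdgfra), where 48.3% of all genes were called. With the trend taken out, 1 was lower with oxLDL and 2 with IS (2289 and 422 of all genes). With added pNaKtide 4 were then higher and 2 lower (36.9% of all genes called). The 6 macrophage markers summed to between 4.72 and 9.09 CPM over all libraries. Of the 3 tested 1, Cd14, was lower with oxLDL (-0.47, SE 0.15, adjusted p = 0.0240), where 18% of all genes were. Its call was lost with the trend taken out (-0.26, adjusted p = 0.161). The part of these markers in the changes of the members was not tested, and in these bulk samples fewer cells of a type and less RNA per cell cannot be told apart.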

How the data were processed

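Libraries of 3T3-L1 cells, 30 in all, were analysed in the groups their labels give. Per the labels and the study's methods, the authors trimmed reads with Trimmomatic 0.38, aligned them to GRCm38 with HISAT2 2.1.0 and counted reads per gene without normalization or pooling, and these count values were used for all tests. The FPKM values, as deposited, are normalized counts per kilobase, and served for levels between genes and for 1 alternative. The annotation release, gene lengths and strand setting behind them are not given in sources used here. Of 54232 genes, 54079 had a symbol in the gene name list used, and 54165 were in the GENCODE M21 annotation. The 20139 whose counts summed to more than 14 were tested in R 4.3.3 with edgeR 4.0.16 (TMM, robust quasi-likelihood, all 6 groups in 1 fit, two-sided, BH adjustment per comparison, threshold 0.1). The common biological coefficient of variation was 14.0%. Log2 CPM used a prior count of 2. Alternatives used limma 3.58.1, DESeq2 1.42.0 and, for the trends over GC content and exon length, mgcv 1.9.3. The steps were tested on simulated data. No pair of libraries within a group was a duplicate (lowest chi-square per degree of freedom 1.28 over 60 pairs).

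The members and lists were chosen with earlier results of these data known. The text names all 10 members, at most 3 genes in each direction with the smallest adjusted p from each other list per comparison, and for each member the 2 genes most like it, except that some genes these rules pick are not reported here. The other lists were written from general knowledge. Promoter sequences are from RefSeq.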

Additional observations from a re-analysis of the deposited data

Results flagged for a closer look

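In 11 of 60 groups of 5 libraries, 1 library lay far from the other 4 by Dixon's criterion, which chance meets in about 1 in 20 groups. In CPM, Nedd4 was at 1170 in IS replicate 4 (nearest other library 1380) and at 1210 in IS+pNaKtide replicate 2 (1360). Nedd4l was at 25.1 in IS replicate 2 (21.5). Itch was at 58.8 in pNaKtide replicate 3 (41.2), at 44.8 in IS replicate 4 (66.8) and at 46.1 in IS+pNaKtide replicate 2 (58.2). Wwp2 was at 41.8 in Control replicate 1 (53.3), Hecw2 at 1.16 in oxLDL+pNaKtide replicate 1 (0.503), and Huwe1 at 520 in Control replicate 1 (367) and at 438 in IS replicate 1 (385). Ube3a was at 41.3 in pNaKtide replicate 3 (24.8). Control replicate 1, IS replicate 4, pNaKtide replicate 3 and IS+pNaKtide replicate 2 account for 8 of the 11.

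The change with pNaKtide under oxLDL differed from that with pNaKtide alone, by edgeR's interaction term, for 6 of the 9 members other than Wwp2, whose difference holds the change with oxLDL that was known when the genes were listed and is given without a test. On the log2 scale the difference was -0.36 for Nedd4 (adjusted p = 0.0778), -0.77 for Itch, -0.76 for Wwp1 (adjusted p = 0.0363), 0.55 for Wwp2, -0.34 for Smurf2 (adjusted p = 0.0672), -1.36 for Hecw2 (adjusted p = 0.0477) and -1.06 for Ube3a.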

How the results depend on the processing

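Counts of members called, Wwp2 included, are given here as descriptions, each with the percentage of all genes called in the same fit. The calls of Wwp2 in them are not tests, since its fall with oxLDL was known when the genes were listed. For oxLDL against Control (5, 36%) they were 1 (19.9%) with the trend over GC content and length taken out and 2 (18.2%) with GC content alone, and 4 to 6 (24.7% to 45.9%) on leaving out each library in turn. For IS against Control (1, 7.94%) they were 5 (15.7%) with DESeq2, 3 (12.6%) with library size alone, 5 (21%) with more than 14 counts in every library, 0 (1.86%) with at least 1 count, 0 (0.646%) at an adjusted p of 0.05, 2 (13%) with limma-trend, 0 (0%) in a fit of the compared groups alone, 0 with the trend taken out (4.02%, and 1.42% with GC content alone), and 6 without 2 libraries (Control 1 and IS 4, 45.4%) or 3 libraries (pNaKtide 3 too, 45.7%). The range on leaving out each library was 0 to 5 (0.0745% to 34.5%), with 5 without Control 1, IS 4, pNaKtide 3 or oxLDL+pNaKtide 4. For oxLDL+pNaKtide against Control (4, 5.2%) they were 2 (5.17%) with RLE size factors, 2 (2.24%) with at least 1 count, 1 (2.93%) at an adjusted p of 0.05, 0 (0.0546%) in a fit of the compared groups alone, and 1 without 2 (6.39%) or 3 libraries (7.36%). Leaving out each library gave 0 to 4 (2.51% to 8.75%), with 1 without Control 1, Control 3 or oxLDL+pNaKtide 3. For IS+pNaKtide against Control (0, 0.358%) they were 1 (7.38%) with DESeq2, 1 (5.72%) in a fit of the compared groups alone, 4 without 2 (32.4%) or 3 libraries (33.4%), and 0 to 3 on leaving out each library (3 without Control 1, 26.7%). For the difference of the changes with pNaKtide (7, 24.6%) they were 1 (11.5%) with GC content and length taken out, 0 (10.1%) with GC content alone, and 2 to 8 (10.5% to 37.3%) on leaving out each library. oxLDL+pNaKtide against oxLDL (8, 48.3%) gave 6 to 8 (30.3% to 71.8%) under the other alternatives run and 7 to 8 (41.4% to 49.6%) on leaving out each library. IS+pNaKtide against IS and pNaKtide against Control stayed at 0 under each. Without Wwp2 the counts of 5, 8 and 7 were 4, 7 and 6, with 0, 5 and 0 when the trend over GC content and length was taken out and 1, 6 and 0 with GC content alone (oxLDL against Control, oxLDL+pNaKtide against oxLDL and the difference, in this order). The cause was not tested.

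Among values called as reported or called under the alternative itself, signs turned for Itch with oxLDL (-0.060, GC content and length) and, for oxLDL+pNaKtide against oxLDL, for Nedd4l (0.46, and 0.20 with GC content alone), Wwp1 (0.084 and 0.044), Huwe1 (0.30) and Smurf1 (-0.12 with GC content alone, -0.044 with library size alone). The trend over GC content alone and the fit without 3 libraries were chosen after the data were seen. Replicate numbers were not taken to pair the libraries, since same-numbered libraries had correlations of -0.66 to 0.79 (median 0.0996, against -0.034 for other numbers). However, 13 of 30 correlated best with their own number, and 37 of 75 same-numbered pairs were above 0.1, against 114 of 300 other pairs. Whether libraries were handled together by number was not tested. A replicate block gave 5 members (17%) for IS against Control and 1 (6.64%) for IS+pNaKtide against Control. Depth limits Hecw2, with 3 to 32 counts a library.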

Other observations

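For each member, the genes most like it over the 30 libraries were found by the Pearson correlation of log2 CPM among 8825 genes (8826 for Hecw2). These are descriptions, since libraries share treatments, depth and base composition. Ube3a went with the BMP receptor gene Bmpr1a (r = 0.98) and Mpp5 (0.98), Nedd4 with Kdm5a (0.97) and Fam13a (0.97), Itch with Pkn2 (0.97) and Pik3c2a (0.97), Wwp1 with Zfp968 (0.97) and Tgfbr1 (0.96), and Smurf2 with Sntb2 (0.97) and Pkn2 (0.97). Wwp2 went with Pik3r2 (0.92) and Tfip11 (0.91), and Huwe1 with Hipk2 (0.94) and Ep400 (0.94). Smurf1 went with Srebf2, the regulator of cholesterol synthesis (0.89). Hecw2 (Il1rl2 at 0.79, Ipo8 at 0.78) and Nedd4l (Pkp4 at 0.67, Pyroxd2 at 0.66) had the lowest values. After the trends over GC content and length were removed, Smurf1 and Srebf2 were at 0.69, Smurf2 and Sntb2 at 0.83 and Ube3a and Bmpr1a at 0.20. Wwp1 and Tgfbr1 were then at 0.25, and Nedd4l was at -0.33 with Pkp4 and -0.39 with Pyroxd2.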
